A study of Mus musculus with 12 samples.

Results

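Motile cilium and ependymal genes were measured by RNA-seq in GFP+ cells sorted as astrocytes from mouse hippocampus and cortex. The 9 genes were Foxj1, Rsph1, Rsph4a, Ccdc153, Tmem212, Dynlrb2, Hydin, Spag17 and Cfap126. They were found by symbol among the 55401 gene IDs of the deposited counts, each at 1 ID. Of the 9, 6 passed the filter on low counts that left 12613 genes for testing, and Rsph1, Tmem212 and Dynlrb2 did not. In hippocampus libraries 42 of the 54 gene-by-library values held at least 1 count, against 10 of 54 in cortex libraries. Rsph4a, Hydin and Spag17 had counts in all 6 hippocampus libraries and none in any of the 6 cortex libraries.

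The mice carried CD51-Flp and Rosa-CAG-FSF-tdTomato, a reporter allele that turns on the red protein tdTomato once Flp has removed a stop cassette. CD51 is the integrin alpha-v subunit, encoded by Itgav. GFP+ cells, taken as astrocytes, were sorted into tdTomato+ cells, named CD51+, and tdTomato- cells, named CD51-; the labels used here do not say what drives GFP, nor the age or sex of the mice. There were 3 libraries in each of 4 groups: hippocampus CD51+, cortex CD51+, hippocampus CD51- and cortex CD51-. All groups share the Flp and reporter alleles, and a recombined reporter stays on, so tdTomato records past as well as present CD51-Flp activity. Groups follow the sample titles, but the submitters' library names read G in the CD51+ groups and GT in the CD51- groups, the reverse of what GFP with tdTomato would give if T stood for tdTomato, and the classes could be exchanged. The labels do not say that replicates came from separate animals, so p-values measure the spread between these libraries, which may be technical.

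A motile cilium is a whip-like extension whose microtubule core, the axoneme, bends when dynein motors slide its outer doublets. Radial spokes and a central apparatus regulate those motors, and both are missing from most primary cilia, the single immotile sensory cilium of most astrocytes and neurons. In the brain, ependymal cells lining the ventricles carry tufts of motile cilia that move cerebrospinal fluid, and the choroid plexus epithelium of the ventricles is ciliated too. FOXJ1 and the RFX factors are the known transcriptional activators of motile cilium genes, and RFX proteins bind a DNA element called the X-box.

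Promoters of 3 of the genes are shown because they hold the RFX core sequence GTTGCC within the 250 bases before and 50 after the transcription start. RefSeq windows of this kind on GRCm38.p6 were found for 6 of the 9 genes, 8 windows in all, on the gene's strand. Capitals mark the full X-box in Hydin (chr8:110266727-110267026, plus strand) and Dynlrb2 (chr8:116504765-116505064, plus strand), and the GTTGCC match in Ccdc153 (chr9:44240427-44240726, plus strand).
Hydin: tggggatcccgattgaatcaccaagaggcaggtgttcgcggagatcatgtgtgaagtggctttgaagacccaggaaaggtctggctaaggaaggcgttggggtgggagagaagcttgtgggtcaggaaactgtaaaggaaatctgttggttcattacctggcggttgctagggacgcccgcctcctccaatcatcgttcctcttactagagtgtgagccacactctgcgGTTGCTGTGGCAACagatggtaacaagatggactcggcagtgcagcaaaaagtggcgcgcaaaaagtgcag
Dynlrb2: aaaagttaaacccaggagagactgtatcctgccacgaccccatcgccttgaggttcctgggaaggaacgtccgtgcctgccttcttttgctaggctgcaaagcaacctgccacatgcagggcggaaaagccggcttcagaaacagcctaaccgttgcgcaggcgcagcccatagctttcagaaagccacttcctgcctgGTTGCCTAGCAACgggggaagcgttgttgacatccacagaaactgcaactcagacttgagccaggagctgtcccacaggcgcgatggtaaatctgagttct
Ccdc153: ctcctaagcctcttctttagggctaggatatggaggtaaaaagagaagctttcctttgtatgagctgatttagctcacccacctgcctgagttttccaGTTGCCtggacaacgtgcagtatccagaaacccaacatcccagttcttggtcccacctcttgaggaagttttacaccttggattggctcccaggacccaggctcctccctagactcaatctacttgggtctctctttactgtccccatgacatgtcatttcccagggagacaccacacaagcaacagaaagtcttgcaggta
The X-box, searched on both strands in a form looser than an exact inverted repeat of that core (2 of the 6 bases of each arm may vary, with a spacer of 0 to 3 bases), began at position -21 from the start of Hydin and at -51 of Dynlrb2. In both genes the GTTGCC match lay inside the X-box, and in Ccdc153 it began at -152. The X-box in this looser form was in 1.53% and GTTGCC in 12.5% of all 32851 promoter windows. The forkhead sequences TGTTTAC and TGTTTGC, in 3.65% and 5.07% of all windows, were in 0 of the 8 windows. These are letter matches only.

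Total counts per library lay between 4351897 and 9458664 in hippocampus CD51+ and between 5500545 and 12847183 in cortex CD51+. For CD51- the totals lay between 7246952 and 8588717 in hippocampus and between 7092606 and 8537573 in cortex. Mitochondrial genes took 20.2% to 71.1% of a library's counts, and cortex CD51+ replicate 3 stood apart with the highest share. Without that library Dynlrb2 passed the filter too. In that fit 1 of the genes tested was called averaged over the classes and 0 within either class, the same numbers called as with it. Levels are counts per 1000000 (CPM) on library sizes scaled by TMM, edgeR's correction for composition. Itgav averaged 369 ± 44.4 CPM in hippocampus CD51+ and 381 ± 172 CPM in hippocampus CD51-, and 584 ± 274 CPM in cortex CD51+ and 311 ± 56.7 CPM in cortex CD51- (SD, n = 3 each), so its mRNA did not separate the classes. Summed pan-astrocyte markers reached 53879 to 67938 CPM in hippocampus CD51+ and 64085 to 85920 CPM in cortex CD51+, against 17229 to 20929 CPM in hippocampus CD51- and 7447 to 17269 CPM in cortex CD51-. Oligodendrocyte markers summed to 1295 to 5019 CPM in hippocampus CD51+ and 2784 to 2945 CPM in cortex CD51+, against 6917 to 38039 CPM in hippocampus CD51- and 33246 to 64018 CPM in cortex CD51-, and microglia markers to at most 1795 CPM in any CD51+ library, against at least 5775 CPM in every CD51- library. In cortex CD51- the oligodendrocyte sum was above the astrocyte sum in all 3 libraries, which goes against the astrocyte label there. In hippocampus CD51- the median oligodendrocyte sum (25402 CPM) was above the highest astrocyte sum (20929 CPM). Libraries there thus went against the label too, though the lowest oligodendrocyte sum (6917 CPM) lay below every astrocyte sum of that group.

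Rsph4a encodes a protein of the radial spoke head and is mutated in human primary ciliary dyskinesia (chr10:33905111-33916021, plus strand, mm10). In hippocampus CD51+ its level was 6.65, 7.51 and 32.0 CPM in replicates 1 to 3, against 0 in the 3 cortex CD51+ libraries. In hippocampus CD51- it was 77.5, 50.1 and 77.6 CPM, against 0 in the 3 cortex CD51- libraries. Every hippocampus library thus held Rsph4a reads, 2616 in all, and no cortex library held one. With a floor of 3 counts over the cortex group, Rsph4a was at least 96.6-fold higher in hippocampus CD51+ and at least 621-fold higher in hippocampus CD51- than in cortex of the same class. The CD51+ bound was 44.8 without hippocampus CD51+ replicate 3. It rose in hippocampus against cortex averaged over the classes (edgeR quasi-likelihood test, Benjamini-Hochberg adjusted p = 0.00684), and was past the threshold of 0.05 in 20 of 20 alternative settings, with adjusted p between 7.95e-15 and 0.0191. Within 1 class the same edgeR test gave adjusted p = 0.104 in CD51+ and 0.0851 in CD51-. Rsph4a had no cortex count and passed the filter only through its hippocampus level. Its direction was thus fixed in advance, and these p-values are a description, as are those of Hydin and Spag17 below. The mean of 68.4 CPM in hippocampus CD51- became 121 CPM when mitochondrial genes were left out of the library sizes.

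Rsph1, another radial spoke head gene (chr17:31255019-31277383, minus strand), was nearly absent. It had 0.268 CPM in hippocampus CD51+ replicate 2 and 0.657 CPM in hippocampus CD51- replicate 1, against 8.21 CPM in cortex CD51+ replicate 2 and 0.292 CPM in cortex CD51- replicate 3; the other 8 libraries had no count. The single cortex library with 64 counts set the direction in CD51+, where the ratio of hippocampus to cortex was 0.0328 (95% counting interval 0.00389 to 0.124). In CD51- the ratio was 3.18 (0.635 to 30.8), an interval that spans equality. Such intervals and floors take in counting error alone: without molecular identifiers, PCR copies of 1 molecule are counted again.

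Hydin and Spag17 encode large proteins of the central apparatus, and loss of Hydin in mice leads to hydrocephalus. Hydin (chr8:110266977-110610253, plus strand), whose X-box promoter is printed above, stood at 1.61, 3.49 and 0.168 CPM in hippocampus CD51+, against 0 in all 3 cortex CD51+ libraries. In hippocampus CD51- it reached 8.79, 60.7 and 8.87 CPM, against 0 in cortex CD51-. The regions did not overlap in either class, though hippocampus CD51+ replicate 3 held only 1 count. The lower bounds on the fold were 11.9 in CD51+ and 228 in CD51-. Replicate 2 was the highest library in both classes, with 26 of 34 counts in hippocampus CD51+ and 654 of 859 in hippocampus CD51-, and without it the bounds were 4.82 and 79.6. Hydin missed the threshold in edgeR averaged over the classes (adjusted p = 0.0721) and passed it with DESeq2 and with limma-voom (adjusted p = 2.51e-05 and 0.0230).

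Spag17 (chr3:99885406-100143322, plus strand) had 0.918, 11.001 and 2.01 CPM in hippocampus CD51+, against 0 in cortex CD51+. Hippocampus CD51- libraries held 6.82, 2.88 and 3.98 CPM, against 0 in cortex CD51-. The lower bounds were 34.3-fold in CD51+ and 41.9-fold in CD51-. Replicate 2 held 82 of the 98 counts in hippocampus CD51+, and without it the CD51+ bound was 9.65-fold. Its adjusted p averaged over the classes was 0.0747 in edgeR, 0.00508 in DESeq2 and 0.0215 in limma-voom. The last exon of Spag17 overlaps exons of Wdr3 on the other strand, and counting ignored strand, so reads there cannot be assigned to 1 gene.

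Dynlrb2 encodes a roadblock-type dynein light chain (chr8:116504974-116515915, plus strand). It was counted in hippocampus CD51- alone, at 2.38, 18.7 and 0.453 CPM in replicates 1 to 3, against no count in cortex CD51- or in the 6 CD51+ libraries. Replicate 2 held 201 of its 235 counts. The fold over cortex CD51- was at least 62.3, and hippocampus CD51+ was at least 41.0-fold lower than hippocampus CD51-; without replicate 2 of hippocampus CD51- these bounds were 13.2 and 8.68. Dynlrb2 was below the filter on low counts and was not tested; with no filter its edgeR adjusted p in CD51- was 0.397. Its close paralog Dynlrb1, a light chain of cytoplasmic dynein, was counted in both regions, with 51.0 ± 46.3 CPM in hippocampus CD51+ and 4.59 ± 4.01 CPM in cortex CD51+, and 21.4 ± 16.2 CPM in hippocampus CD51- and 2.59 ± 3.47 CPM in cortex CD51- (SD, n = 3 each). Dynlrb1 did not pass the edgeR test averaged over the classes (log2 fold change 3.26 ± 1.16 SE, adjusted p = 0.176).

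Ccdc153, a coiled-coil gene used as a marker of ependymal cells (chr9:44240676-44247306, plus strand), had 0.229, 4.56 and 0.335 CPM in hippocampus CD51+, against 0 in cortex CD51+. In hippocampus CD51- it had 0.0821, 66.6 and 2.17 CPM, against 0.169, 0 and 0 CPM in cortex CD51-. Every hippocampus library had a count, but replicate 2 held 717 of the 742 counts in hippocampus CD51-, and replicate 1 lay below the one cortex CD51- library with counts. The fold was at least 12.96 in CD51+, and in CD51- the ratio was 295 (81.5 to 2443). Without replicate 2 the CD51- ratio was 14.6 (3.63 to 127), and the 3 counts left in hippocampus CD51+ gave no fold. The adjusted p averaged over the classes was 0.0944 in edgeR, 0.00191 in DESeq2 and 0.235 in limma-voom. Within CD51- it was 0.264 in edgeR and 0.0121 in DESeq2.

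Cfap126, which encodes the axonemal protein also called Flattop (chr1:171113918-171126967, plus strand), had counts in hippocampus and not in cortex within CD51+, and in both regions within CD51-. It had 0, 0.939 and 20.8 CPM in hippocampus CD51+, against 0 in cortex CD51+. In hippocampus CD51- it had 39.0, 1.02 and 2.17 CPM, against 1.69, 0 and 35.6 CPM in cortex CD51-. A single library thus dominated each group that had counts, and the CD51- groups overlapped. The pooled fold was at least 45.9 in CD51+, or 3.69 without hippocampus CD51+ replicate 3, and the edgeR log2 fold change in CD51- was 0.18 ± 2.26 (SE, adjusted p = 0.999). Without hippocampus CD51- replicate 1 that log2 value was -2.95.

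Tmem212, an ependymal marker that encodes a membrane protein (chr3:27866066-27896368, minus strand), had 2.29 CPM in hippocampus CD51+ replicate 1 and 0.557 CPM in hippocampus CD51- replicate 2, against no count in any cortex library. Its 16 counts gave folds of at least 3.50 in CD51+ and at least 1.59 in CD51-, each from 1 library.

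Foxj1, the regulator of the motile cilium programme (chr11:116330704-116335399, minus strand), was the one gene of the set found widely in cortex, in 5 of 6 libraries. It had 0.918, 3.22 and 98.0 CPM in hippocampus CD51+, against 30.1, 0.513 and 0.406 CPM in cortex CD51+. In hippocampus CD51- it had 16.3, 5.57 and 17.6 CPM, against 14.2, 0.359 and 0 CPM in cortex CD51-. The regions overlapped in both classes, and 1 library dominated every group other than hippocampus CD51-. The edgeR log2 fold change was 1.72 ± 2.01 in CD51+, 1.43 ± 1.99 in CD51- and 1.58 ± 1.42 averaged over the classes (SE, adjusted p = 0.854, 0.879 and 0.676). Without hippocampus CD51+ replicate 3 it was -2.29 in CD51+ and -0.34 averaged over the classes.

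**Figure D1:**
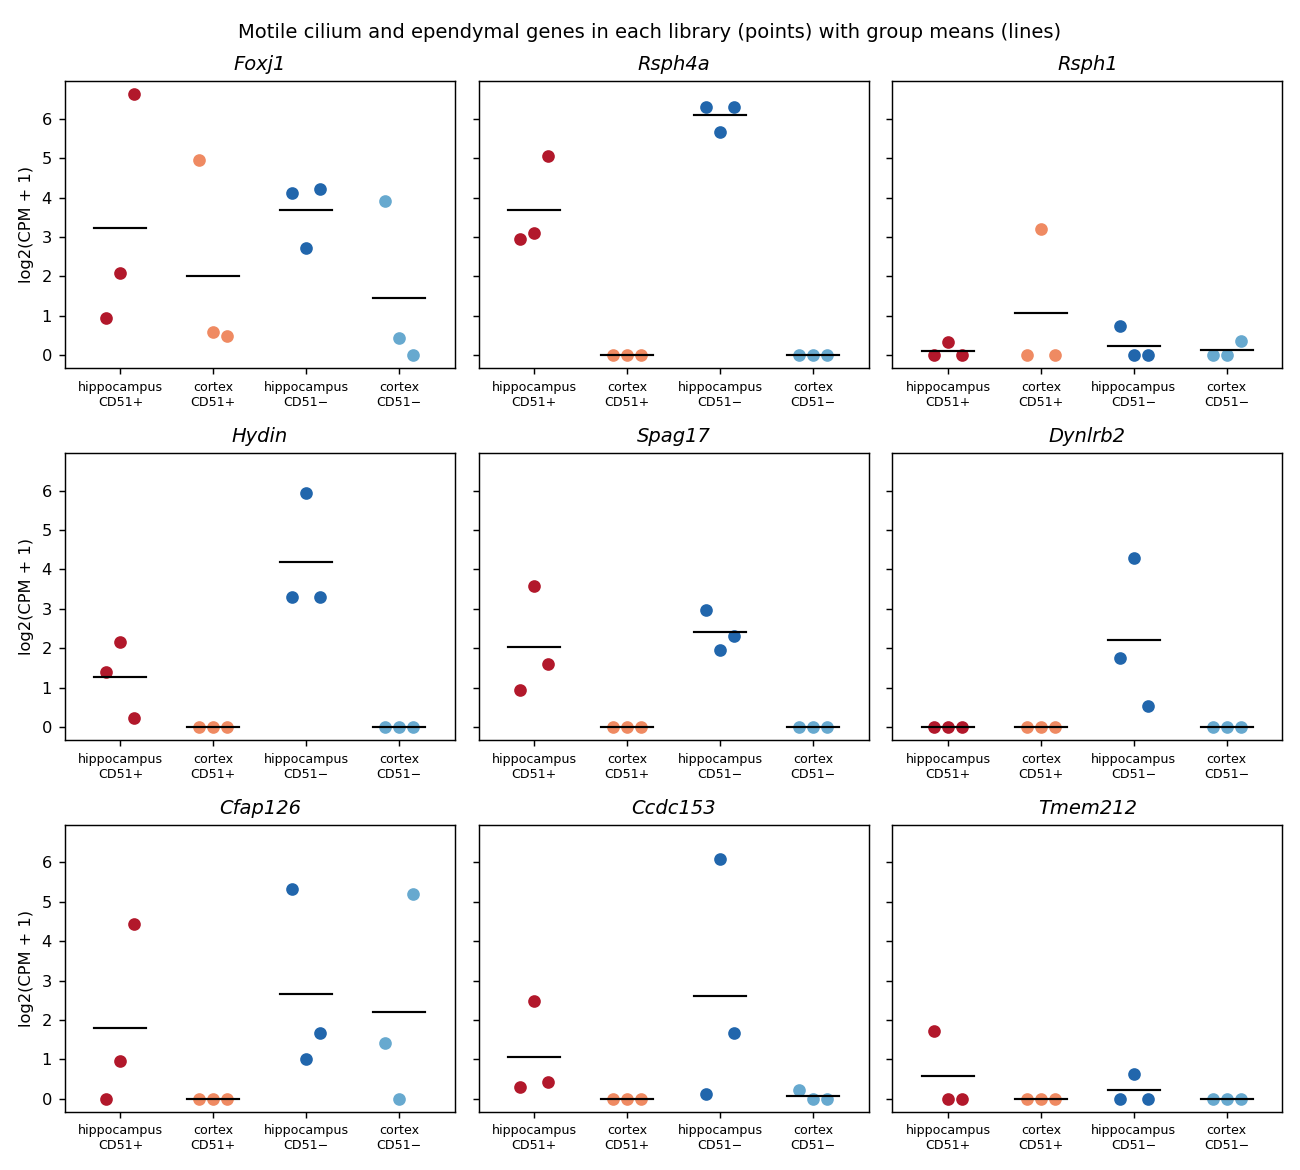
Level of each of the 9 genes in each library, as log2(CPM + 1), for hippocampus CD51+, cortex CD51+, hippocampus CD51- and cortex CD51-; points run from replicate 1 to 3 and lines are means of the 3 log2 values. Rsph4a, Hydin and Spag17 lie above 0 in all 6 hippocampus libraries and at 0 in all 6 cortex libraries, while Foxj1 and the CD51- libraries of Cfap126 overlap between regions.

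Per kilobase of exon, the highest mean over the 6 hippocampus libraries was 11.5 ± 8.78 CPM per kilobase (RPKM) for Rsph4a. Foxj1 followed with 8.99 ± 14.1, Dynlrb2 with 6.45 ± 13.4, Ccdc153 with 6.06 ± 13.1 and Cfap126 with 6.005 ± 9.02 RPKM (SD, n = 6). Over the 6 libraries these 5 did not differ beyond their spread, which takes in the class differences, and the order differed between the classes. Within hippocampus CD51- Rsph4a (18.7 ± 4.35 RPKM) was above Foxj1 (5.01 ± 2.51 RPKM) in every library (SD, n = 3 each). In hippocampus CD51+ Foxj1 averaged 12.98, Rsph4a 4.22, Cfap126 4.08, Ccdc153 0.839 and Dynlrb2 0 RPKM, and in hippocampus CD51- Rsph4a averaged 18.7, Dynlrb2 12.9, Ccdc153 11.3, Cfap126 7.93 and Foxj1 5.01 RPKM (n = 3 each). Hydin, Tmem212, Spag17 and Rsph1 were lower, at 0.773, 0.664, 0.542 and 0.112 RPKM, and in this order too neighbours lie within their spread.

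Averaged over the classes, 1 of the 6 tested genes rose in hippocampus, Rsph4a, and none fell; over all 12613 genes 0.159% rose. Within CD51+ edgeR called 0 of 6, with 5 at an unadjusted p under 0.05, while DESeq2 called 1 and limma-voom 0; over all genes edgeR called 0.0238% higher, and 7.12% were higher at that unadjusted p. Within CD51- edgeR called 0 of 6, with 4 at an unadjusted p under 0.05, while DESeq2 called 3 and limma-voom 2; over all genes edgeR called 0%, and 10.3% were higher at the unadjusted p. A gene that passed the filter only through its hippocampus level had to differ, so these counts are a description.

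Without overlap between the libraries of the 2 regions, Rsph4a, Ccdc153, Hydin and Spag17 were higher in hippocampus CD51+ than in cortex CD51+, 4 of 9 beside 7.54% of all genes tested. Rsph4a, Dynlrb2, Hydin and Spag17 were higher in hippocampus CD51- than in cortex CD51-, 4 of 9 beside 10.4%. With 3 libraries against 3, the exact two-sided permutation test gives p = 0.1 for each, the smallest it can give. In hippocampus CD51+ the lack of overlap for Ccdc153 and Hydin rests on 1 or 2 counts against 0. Ccdc153 there had 1 count in replicate 1 and 2 in replicate 3, and Hydin had 1 in replicate 3. Over all 6 hippocampus and 6 cortex libraries, Rsph4a, Hydin and Spag17 did not overlap, 3 of 9 beside 0.793% of genes tested. The 9 include Rsph1, Tmem212 and Dynlrb2, which were below the filter, so they and the genes tested are not the same base. None of the 9 was lower in hippocampus without overlap. For 5 of the 9 no cortex library held a count, beside 17.5% of the 24340 genes with a count in some library. Among genes tested it was 3 of the 6, beside 1.17%. Genes without a cortex count passed the filter only through their hippocampus level, so the figures among genes tested are a description. The 9 were also chosen with earlier results of these data known, so their shares beside all genes are no independent test.

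The regional difference was not shown to depend on the class. The edgeR interaction called 0 of the 6 tested genes, with Cfap126 at an unadjusted p of 0.0353 (adjusted p = 0.359), and DESeq2 and limma-voom called 0 as well; over all genes edgeR called 0%, and 12.6% had an unadjusted p under 0.05. For Rsph4a, Hydin and Spag17, with no count in either cortex group, the interaction cannot be estimated.

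Within hippocampus, Rsph4a, Dynlrb2 and Hydin were lower in CD51+ than in CD51- without overlap, 3 of 9 beside 16.7% of all genes tested. Dynlrb2 was itself below the filter and not among the genes tested. Rsph4a averaged 15.4 ± 14.4 CPM in CD51+ and 68.4 ± 15.9 CPM in CD51-, and Hydin 1.75 ± 1.67 CPM in CD51+ and 26.1 ± 30.0 CPM in CD51- (SD, n = 3 each). Neither passed the edgeR test, with log2 fold changes of -2.15 ± 1.43 and -3.88 ± 2.21 (SE, adjusted p = 0.478 and 0.378). Spag17 overlapped between the classes, at 4.64 ± 5.53 CPM in CD51+ and 4.56 ± 2.03 CPM in CD51-. For CD51+ against CD51- edgeR, DESeq2 and limma-voom each called 0 of 6 in hippocampus and 0 of 6 in cortex, beside 3.31% and 11.3% of all genes with edgeR; at an unadjusted p under 0.05 there were 0 of 6 in hippocampus, beside 19.1% of all genes, and 1, Cfap126, in cortex, beside 31.9%.

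The genes did not rank the hippocampus libraries alike. Replicate 2 was the highest hippocampus CD51- library for Hydin, Ccdc153 and Dynlrb2, replicate 1 for Cfap126 and Spag17, Foxj1 was highest in replicate 3, and Rsph4a was about equal in replicates 1 and 3. In hippocampus CD51+, Foxj1, Rsph4a and Cfap126 peaked in replicate 3, and Hydin, Spag17 and Ccdc153 in replicate 2. Over the 12 libraries the Pearson correlation of log2 CPM between the 6 tested genes ran from 0.03 (Ccdc153 and Cfap126) to 0.91 (Rsph4a and Spag17) in 15 pairs, and the regional difference and library depth enter every pair.

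Outside the gene lists used here, the tested genes whose levels over the 12 libraries were most like the mean standardised profile of these 6 were Vwa3a (r = 0.94), Ecm2 (0.93), Commd6, Fam219b and Htr2c (0.92 each), Pcp4l1, Nsg2 and Cdkl4 (0.91 each), Nutf2 (0.90) and Pdcl3 (0.89). Htr2c encodes a serotonin receptor that is abundant in choroid plexus, and Ecm2 an extracellular matrix protein. These are descriptions over libraries that share regions and classes.

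Summed over other genes of the motile axoneme, the level was higher in hippocampus. The 5 axonemal lists, with the 9 genes left out, hold 95 genes, of which 65 were tested. Their summed level was 587 to 875 CPM in hippocampus CD51+, against 232 to 336 CPM in cortex CD51+, and 709 to 1527 CPM in hippocampus CD51-, against 349 to 577 CPM in cortex CD51-. In neither class did the regions overlap. Averaged over the classes 1 of 65 rose (edgeR), beside 0.159% of all genes, and none fell. At an unadjusted p under 0.05, 38 were higher, beside 10.3% of all genes, and 59 had a positive estimate. The median log2 fold change of the 65 was 4.36 as fitted and 2.99 with genes at 0 in a group set at their bound, beside 0.16 over all genes tested. A gene that passed the filter only through its hippocampus level had to be positive, so these tallies and medians support no direction. The gene that rose was Cfap44, needed for the flagellar axoneme, with 13.99, 40.4 and 32.5 CPM in hippocampus CD51+, against 0 in cortex CD51+, and 29.3, 164 and 45.7 CPM in hippocampus CD51-, against 8.86, 7.31 and 0.292 CPM in cortex CD51- (edgeR adjusted p = 0.0208). Of the 95, 9 had no count in any hippocampus library and 31 none in any cortex library, and both numbers include 6 without a count in any library. Of all genes with a count in some library, 10.6% had none in hippocampus and 17.5% none in cortex. These shares leave out genes like those 6, so the bases differ.

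Within those lists, which here include the 9 genes, the radial spoke list had 1 of 10 tested genes called (Rsph4a) and 7 higher at an unadjusted p under 0.05, beside 10.3% of all genes. Nme5, a radial spoke protein, was at least 116-fold higher in hippocampus CD51+ and at least 171-fold higher in hippocampus CD51- than in cortex of the same class, and Cfap61 at least 102-fold and at least 20.4-fold (edgeR adjusted p = 0.0693 and 0.0746 averaged over the classes). The summed level of the central apparatus list overlapped between regions in CD51+, at 107 to 298 CPM in hippocampus and 7.51 to 159 CPM in cortex. Averaged over the classes the list had 0 of 14 called and 9 at the unadjusted p. There Cfap54 averaged 48.2 ± 67.1 CPM in hippocampus CD51+ and 0.753 ± 1.03 CPM in cortex CD51+, and 45.9 ± 26.9 CPM in hippocampus CD51- and 1.76 ± 2.17 CPM in cortex CD51- (SD, n = 3 each; edgeR log2 fold change 5.31 ± 1.34 SE, adjusted p = 0.0747).

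The axonemal dyneins, the motors themselves, had 0 of 17 called and 11 at the unadjusted p. Over all genes the shares were 0.159% and 10.3%, here and for the lists below. Dnah10, an inner arm heavy chain, had no cortex count and was at least 67.2-fold higher in hippocampus CD51+ and at least 110-fold higher in hippocampus CD51- (edgeR adjusted p = 0.0693). Dnah12, another heavy chain, averaged 16.5 ± 12.2 CPM in hippocampus CD51+, against 0 in cortex CD51+, and 31.4 ± 11.4 CPM in hippocampus CD51-, against 0.759 ± 1.32 CPM in cortex CD51- (SD, n = 3 each; edgeR adjusted p = 0.0718). The heavy chain gene Dnah11 went the other way in CD51+, with 135 counts in hippocampus and 380 in cortex (pooled ratio 0.373). In CD51- it had 409 counts in hippocampus and 0 in cortex. Among docking and assembly genes 0 of 10 were called and 5 passed at the unadjusted p. Their summed level overlapped between regions in CD51-, at 27.3 to 170 CPM in hippocampus and 48.9 to 244 CPM in cortex, with the mean lower in hippocampus (110 ± 73.9 CPM) than in cortex (139 ± 98.4 CPM; SD, n = 3 each). Ccdc40, which sets axonemal repeat length, had 135 counts in hippocampus CD51- and 1801 in cortex CD51-, of which replicate 2 held 1789. Among microtubule inner and other axonemal proteins 1 of 18 was called (Cfap44) and 10 passed at the unadjusted p. Their summed level overlapped in CD51- too, at 177 to 494 CPM in hippocampus and 43.6 to 182 CPM in cortex. Ependymal markers had 0 of 12 called and 7 at the unadjusted p, with 2 of 16 at 0 in hippocampus CD51+ and 8 in cortex CD51+, and 0 in hippocampus CD51- and 5 in cortex CD51-. Their sum overlapped between regions in CD51+, at 178 to 203 CPM in hippocampus and 27.8 to 243 CPM in cortex, and not in CD51-, at 156 to 417 CPM in hippocampus and 27.6 to 89.4 CPM in cortex. Tm4sf1 went the other way in CD51+, with 4 counts in hippocampus and 783 in cortex, 773 of them in replicate 2 (edgeR adjusted p = 0.345).

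**Figure D2:**
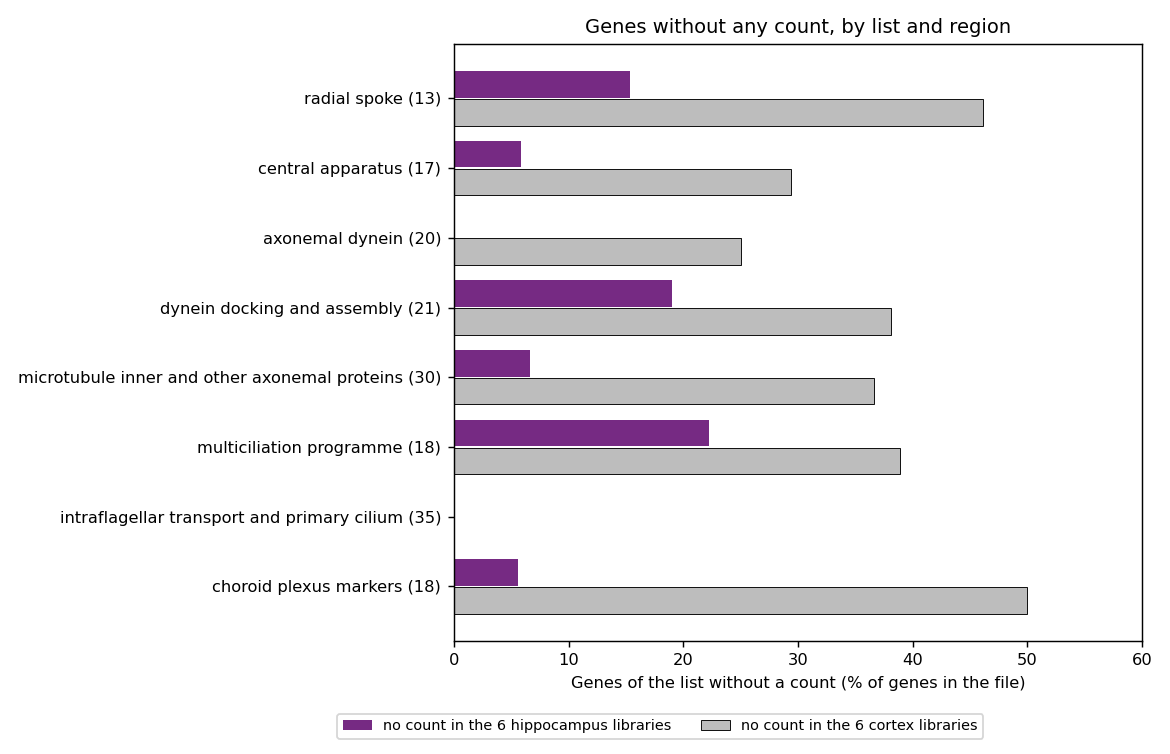
Share of each gene list without any count, in percent of its genes in the file (number in brackets), for the 6 hippocampus libraries (upper bar) and the 6 cortex libraries (lower bar). All 5 axonemal lists lack more genes in cortex, and all 35 genes of intraflagellar transport and the primary cilium were counted in both regions; of the radial spoke genes 2 of 13 had no hippocampus count and 6 of 13 no cortex count.

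No gene of the programme that switches on multiciliation passed the test. Of the multiciliation programme 9 of 18 genes were tested, 0 were called by edgeR and 0 were higher at an unadjusted p under 0.05, beside 0.159% and 10.3% of all genes, with a median log2 fold change of 1.46. With 9 genes these shares are near the background. Mcidas, a co-activator that starts the programme, and Cdc20b and Foxn4 were at 0 in all 12 libraries. Genes of intraflagellar transport and the primary cilium, shared by motile and immotile cilia, had 0 of 31 called by edgeR and 4 higher at an unadjusted p under 0.05, near those same shares of all genes, with a median of 0.49. Their summed level overlapped between regions, at 506 to 661 CPM in hippocampus CD51+ and 561 to 671 CPM in cortex CD51+, and 441 to 727 CPM in hippocampus CD51- and 356 to 742 CPM in cortex CD51-.

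**Figure D3:**
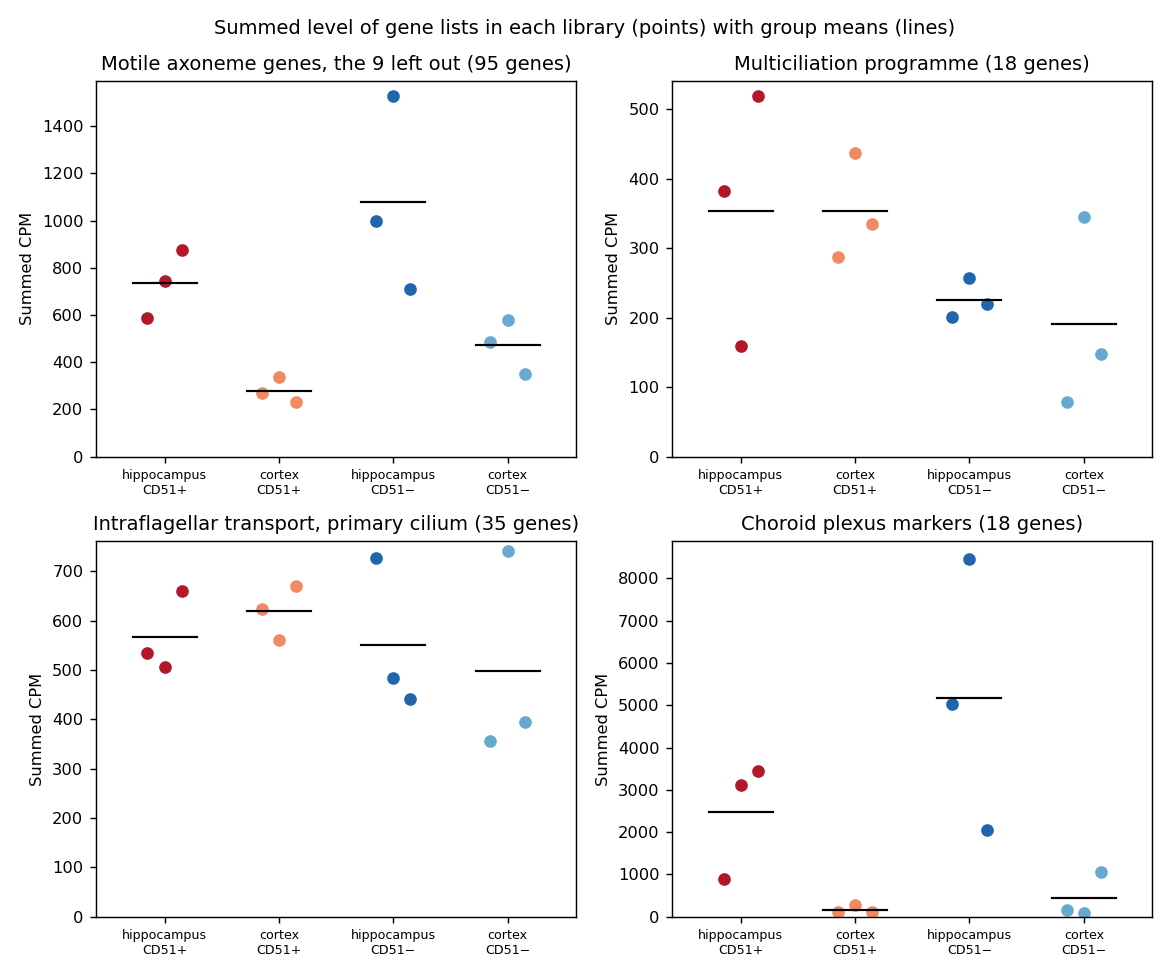
Summed CPM of 4 gene lists in each library (points) with group means (lines), for hippocampus CD51+, cortex CD51+, hippocampus CD51- and cortex CD51-. The sum over the 95 axonemal genes is higher in every hippocampus library than in any cortex library of the same class. In CD51+ it starts at 587 CPM in hippocampus, against at most 336 CPM in cortex. The sums of the multiciliation and primary cilium lists overlap.

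Choroid plexus markers were also higher in hippocampus. They summed to 883, 3118 and 3437 CPM in hippocampus CD51+, against 116, 275 and 112 CPM in cortex CD51+, and to 5029, 8458 and 2041 CPM in hippocampus CD51-, against 163, 94.8 and 1050 CPM in cortex CD51-. The 9 cilium and ependymal genes summed to 12.6, 31.0 and 153 CPM in hippocampus CD51+, against 30.1, 8.72 and 0.406 CPM in cortex CD51+, and to 152, 206 and 113 CPM in hippocampus CD51-, against 16.03, 0.359 and 35.9 CPM in cortex CD51-. Within each hippocampus class the libraries held the same order in both sums, and the cortex CD51- library highest in one was highest in the other. In cortex CD51+ they did not: the 9 genes were highest in replicate 1 and the choroid plexus markers in replicate 2, and cortex CD51+ replicate 1 was above hippocampus CD51+ replicate 1 for the 9 genes (12.6 CPM in hippocampus and 30.1 CPM in cortex) and below it for the markers. Of 13 tested choroid plexus markers 6 rose in hippocampus averaged over the classes (edgeR), beside 0.159% of all genes. At an unadjusted p under 0.05, 12 were higher, beside 10.3% of all genes. Of the 18 markers 9 had no count in any cortex library. Those among them that were tested passed the filter only through hippocampus and had to be higher, so these counts are a description. Ttr, the transthyretin gene and one of the most abundant choroid plexus transcripts, rose with an edgeR adjusted p of 0.00684, and its log2 fold change was 4.70 ± 0.74 (SE). Of the 18 markers, 3 were at 0 in hippocampus CD51+ (Lmx1a, Steap1 and Wfdc2) and 14 in cortex CD51+, and 2 in hippocampus CD51- (Aqp1 and Wfdc2) and 10 in cortex CD51-. The summed level of neural stem and subventricular markers also differed between regions without overlap. They summed to 371 to 587 CPM in hippocampus CD51+, against 265 to 315 CPM in cortex CD51+. In hippocampus CD51- they summed to 200 to 416 CPM, against 43.6 to 189 CPM in cortex CD51-. Averaged over the classes edgeR called 0 of 11, beside 0.159% of all genes. At an unadjusted p under 0.05, 4 were higher, beside 10.3% of all genes. The single markers were split in CD51+, where 6 of the 11 had a positive estimate, against 10 in CD51-. Their median log2 fold changes were 0.155 in CD51+ and 1.95 in CD51-, beside 0 and 0.121 over all genes tested. The part of choroid plexus, ependymal or subventricular cells or RNA in the regional difference was not tested. In bulk libraries fewer cells of a type and less RNA per cell cannot be told apart.

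**Figure D4:**
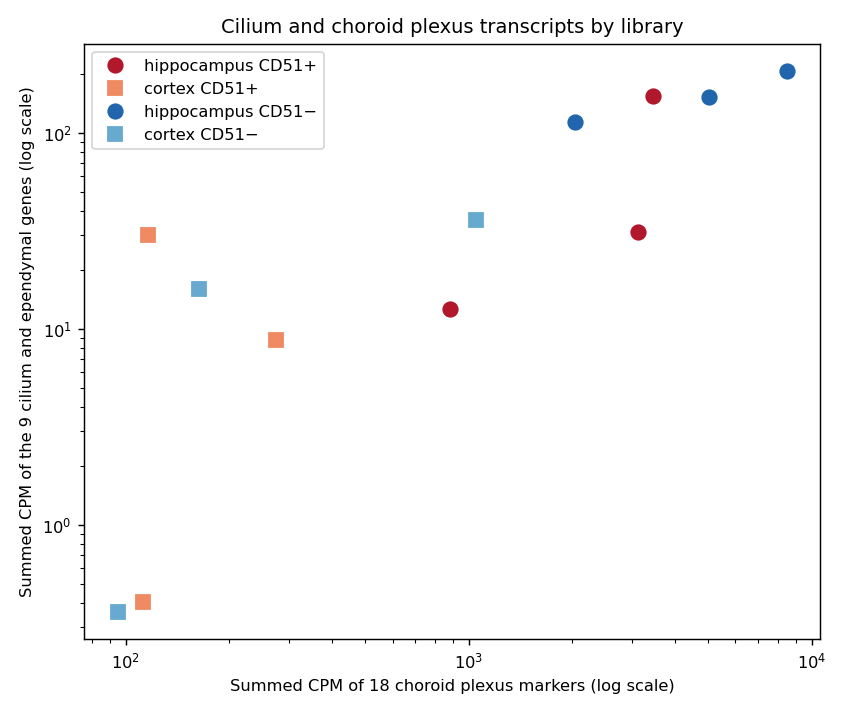
Summed CPM of the 9 cilium and ependymal genes against summed CPM of 18 choroid plexus markers, both on log scales, 1 point per library. The 6 hippocampus libraries lie at 2041 CPM or more of choroid plexus markers except hippocampus CD51+ replicate 1 at 883 CPM, and cortex libraries lie at 275 CPM or less except cortex CD51- replicate 3 at 1050 CPM.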

How the data were processed

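RNA-seq counts were analysed in 12 libraries, 3 in each of 4 groups taken from the sample titles. Per the file headers, the authors deposited raw counts from featureCounts 2.0.4, of read pairs over GENCODE vM25 exons, unstranded, primary alignments only. Per the submitters' processing notes STAR, mm10 and DESeq2 1.40.2 were used. Symbols came from a GENCODE vM21 table, which named 55141 of 55401 IDs, and coordinates and lengths from the deposited counts file. Unstranded counting cannot separate genes that overlap on opposite strands.

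Genes were kept by filterByExpr by group (minimum count 10, minimum total 15). The test was edgeR 4.0.16's quasi-likelihood F test (R 4.3.3) with TMM factors, robust off, the 4 groups fitted together, and p-values adjusted by Benjamini-Hochberg over all 12613 genes tested (threshold 0.05). The SE of a log2 fold change is its size divided by the square root of F. The common biological coefficient of variation was 1.28, which limits the precision. DESeq2 1.42.0, limma-voom (limma 3.58.1), other scalings and filters, a replicate block and leaving out each library were alternatives. The fit was tested on simulated counts. For a gene with no count in a group, 3 counts over that group set a floor; for 1 to 3 counts an exact 95% counting interval is given. Named genes are the 9, up to 4 genes per list and contrast with the smallest p (those printed are a selection), and the 10 most alike in profile (mean CPM of at least 2). The genes and lists were chosen with earlier results of these data known.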

Additional observations from a re-analysis of the deposited data

How the results depend on the processing

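Rsph4a averaged over the classes kept its direction and call in every alternative run. Without a cortex count its direction could not turn, so this is a description. The main fit tested 6 of the 9 genes. With no filter Rsph1, Tmem212 and Dynlrb2 were tested too, and Dynlrb2 was also tested in some fits that left out 1 library. Otherwise the number of genes of the set that were called moved with tool and filter. Averaged over the classes it was 1, against 4 with DESeq2, 3 with limma-voom and 3 with no filter; in CD51+ it was 0, against 1 with DESeq2 and 1 with no filter; in CD51- it was 0, against 3 with DESeq2, 2 with limma-voom and 1 with no filter; for CD51+ against CD51- in cortex it was 0, against 1 with no filter. The cause was not tested. Leaving out 1 library gave 1 to 1 averaged over the classes, and 0 to 1 within CD51+ (1 without cortex CD51- replicate 3) and within CD51- (1 without cortex CD51+ replicate 1 or 2, cortex CD51- replicate 3 or hippocampus CD51+ replicate 1).

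Deviations of same-numbered replicates correlated at -0.048 to 0.027, and those of differently numbered ones at -0.044 to 0.060. Values this small cannot decide whether equal numbers mark a shared animal or preparation. A replicate block left 1 gene called averaged over the classes and 0 in the other comparisons. Over all genes, the count called for hippocampus against cortex was 5 in CD51+ (488 with DESeq2, 2 with limma-voom, 97 with no filter, 3 with only the groups compared, 0 with the replicate block, 2 to 35 leaving out 1 library), 0 in CD51- (706, 109 and 112 with DESeq2, limma-voom and no filter, 0 to 68) and 24 averaged (723, 53 and 292, 11 to 69). It was 0 for the interaction (522 with DESeq2, 146 with no filter, 0 to 42), 1428 for the classes in cortex (3219 with DESeq2, 2164 with limma-voom, 879 to 1507) and 418 in hippocampus (1457, 885 and 636 with DESeq2, limma-voom and no filter, 198 to 559).

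Signs turned for some log2 fold changes that had not passed the test. Log2 fold changes for CD51+ against CD51- in hippocampus were 1.37 for Foxj1 (-0.72 with limma-voom, -2.65 to 1.94 leaving out 1 library) and 0.03 for Spag17 (-0.55 with limma-voom, -0.035 without mitochondrial genes, -0.053 with no filter, -0.51 with the replicate block, -1.63 to 0.51). Leaving out 1 library gave -6.26 to 0.61 for Ccdc153 and -4.82 to 2.17 for Cfap126 there. Between regions it gave -2.95 to 3.97 for Cfap126 in CD51-, and for Foxj1 -2.29 to 6.16 in CD51+ and -0.34 to 3.89 averaged. Without mitochondrial genes the hippocampus CD51- means were 23.4 CPM for Foxj1, 121 CPM for Rsph4a (97.5 CPM on raw library sizes) and 7.96 CPM for Spag17. Values near 3 counts are limited by depth. The fold bounds without 1 library were added after seeing the data.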
